A study of Mus musculus with 6 samples.

Results

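Fabp3, Fabp4, Fabp5 and Fabp7 code for heart-type, adipocyte, epidermal and brain-type fatty-acid-binding proteins, and their expression was compared in macrophages with and without Fabp5. The members are the probe sets whose platform symbol is one of these 4 genes, out of 18193 genes with a probe set of their own. That gave 9 of the 45037 probe sets tested, with 2 for Fabp3, 4 for Fabp4, 2 for Fabp5 and 1 for Fabp7. The genes were chosen with their difference between the genotypes already known from these arrays, so no p-value is given for a member and the members' calls are counted as a description.

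The samples were 3 macrophage cultures labelled E-FABP knockout and 3 labelled wild type, all given as strain C57BL/6, from naive mice between 6 and 8 weeks old. E-FABP is the protein product of Fabp5. Bone marrow cells had been grown with the growth factor GM-CSF at 20 ng/ml for 7 days, after which E0771 cells, from a mouse breast cancer, shared the medium of each culture for 18 h from inside an insert. The tumour cells were thus common to both genotypes, and cultures without them were not analysed here. The sample titles call the 3 samples of each genotype biological replicates. Neither the deleted part of Fabp5 nor whether each replicate came from its own animal is given in the labels, so errors and p-values measure the spread among these samples. GM-CSF cultures of bone marrow are not pure: they hold macrophages, cells with dendritic cell features and remaining granulocytes. Total RNA was read on Affymetrix 3' expression arrays, whose deposited values are on the log2 scale, 1 per probe set and array. A difference of 1 is therefore a doubling. How precise a value can be is limited by there being 3 arrays per genotype.

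Fatty-acid-binding proteins are small cytosolic proteins that fold into a barrel around a long-chain fatty acid or related lipid. They carry lipids between membranes, lipid droplets, mitochondria and the nucleus, where some pass ligands to the nuclear receptors of the PPAR family. Macrophages are known mainly for FABP4, which is induced on differentiation and lipid loading, and for FABP5. FABP3 is typical of heart and skeletal muscle, and FABP7 of glia and neural progenitors. In mice Fabp5 and Fabp4 lie on chromosome 3, in a run of protein-coding genes that reads Fabp5, Pmp2, Fabp9, Fabp4 and Fabp12. Fabp3 lies on chromosome 4 and Fabp7 on chromosome 10.

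Of the 4 members, 2 matched RefSeq's table of promoters, Fabp3 and Fabp7, which are also those on other chromosomes than the targeted gene. The 250 bases before each of their transcript starts (RefSeq, build GRCm38.p6, plus strand) are shown; Fabp4 and Fabp5 had no match. Capitals mark matches to the motifs named after them.
Fabp3, chr4:130308488-130308737: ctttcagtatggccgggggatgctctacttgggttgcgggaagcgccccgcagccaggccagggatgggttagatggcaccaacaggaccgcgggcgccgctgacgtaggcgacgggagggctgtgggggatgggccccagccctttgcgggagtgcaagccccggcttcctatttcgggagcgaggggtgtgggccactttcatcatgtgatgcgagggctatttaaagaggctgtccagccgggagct
Fabp7, chr10:57784673-57784922: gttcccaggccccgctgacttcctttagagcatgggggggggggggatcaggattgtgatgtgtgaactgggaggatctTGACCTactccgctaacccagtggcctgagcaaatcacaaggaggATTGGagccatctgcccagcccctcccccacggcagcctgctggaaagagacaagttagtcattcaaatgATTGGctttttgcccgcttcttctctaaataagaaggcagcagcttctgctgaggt
The window of Fabp3 was the richer in G and C, at 64.8%, against 54.8% for Fabp7 and a median of 52.4% over 32851 windows of this length. Searched on both strands were the PPAR half-site AGGTCA, its direct repeat with 1 base between, AGGTCANAGGTCA, the core of the interferon-stimulated response element, TTTCNNTTTC, the TATA box core TATAAA and the CCAAT box CCAAT. The Fabp7 window held the half-site on the minus strand, 171 to 166 bases before the start, and 14% of all windows held it on either strand. It also held the CCAAT box at 2 places on the minus strand, as 33.8% of windows did at least once. The Fabp3 window held none of the 5 motifs as spelled here, and variants of their letters were not searched in either window. The direct repeat was in 0.0335% of windows, the interferon element core in 2.98% and the TATA core in 12.4%. A match is a stretch of letters and not a shown binding site.

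Fabp5, the targeted gene, had the 2 most negative differences of all probe sets tested. Probe set 1416021_a_at read 8.13, 8.31 and 8.39 in knockout replicates 1, 2 and 3, against 14.47, 14.41 and 14.45 in the wild-type replicates. The genotypes lay far apart on every array, with a mean of 8.27 ± 0.13 (SD, n = 3) against 14.44 ± 0.03 (n = 3), a difference of -6.17 (SE 0.08). Probe set 1416022_at read 5.94, 6.39 and 5.70 in knockout and 13.90, 13.83 and 13.96 in wild type. Its difference of -7.89 (SE 0.15) was deeper than that of the first probe set. The knockout value that remained therefore depended on the probe set: with the second it lay near 5.63, the median of all values, and with the first well above it. The arrays also ordered differently: knockout replicate 3 was the highest of the knockout arrays with the first probe set and the lowest with the second. All 6 arrays carried the genotype on their label by either probe set, although whether the probes lie in the deleted part is not known.

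Markers of epithelial cells, the tissue from which E0771 arose, were read beside that remaining Fabp5 value. The mean of 11 such markers spanned 5.38 to 5.45 over the knockout arrays and 5.38 to 5.43 over those of wild type, and 0 of the 11 passed limma's threshold (adjusted p under 0.05 over all probe sets; 1 was lower at an unadjusted p under 0.05). Of these, 4 lay above the median of all values. The brightest was Cdh1, the epithelial cadherin, with 8.29 ± 0.37 for knockout and 8.18 ± 0.26 for wild type (SD, n = 3 each). Epcam, the epithelial adhesion molecule, read 6.66 ± 0.14 and 6.76 ± 0.11 (SD, n = 3 each). Their part in the remaining Fabp5 value was not tested.

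Fabp4, the adipocyte and macrophage carrier, read lower in knockout with all 4 of its probe sets. Probe set 1417023_a_at read 10.45, 10.01 and 10.21 in knockout replicates 1, 2 and 3 and 11.39, 11.34 and 11.19 in the wild-type replicates. The lowest wild-type array stood 0.73 above the highest knockout array, and the difference was -1.08 (SE 0.11), or 2.11-fold. Probe set 1451263_a_at read 10.25, 9.82 and 10.02 against 11.14, 10.83 and 10.92, a difference of -0.93 (SE 0.12). Both put knockout replicate 1 highest and knockout replicate 2 lowest of the knockout arrays. The dimmer probe sets gave smaller differences: 1424155_at read 5.08, 5.09 and 4.93 against 6.00, 5.88 and 5.75 (-0.84, SE 0.08). With 1425809_at the values were 6.41, 6.13 and 6.27 against 6.77, 7.22 and 6.92 (-0.70, SE 0.12). The genotypes did not overlap with any of the 4, and the 4 differences spanned 1.62-fold to 2.11-fold. Since the RNA came from whole cultures, fewer cells with Fabp4 and less Fabp4 RNA per cell cannot be told apart, here or for the genes that follow.

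Fabp3, the carrier of heart and skeletal muscle, was measured in these macrophages and its genotypes stood apart with the brighter of its probe sets only. Probe set 1416023_at read 8.00, 7.74 and 8.21 in knockout replicates 1, 2 and 3 and 9.14, 9.22 and 8.88 in the wild-type replicates. The lowest wild-type array stood 0.67 above the highest knockout array. Means were 7.98 ± 0.24 (SD, n = 3) and 9.08 ± 0.18 (n = 3), a difference of -1.10 (SE 0.13) or 2.14-fold. The other probe set, 1444844_at, read 6.22, 6.01 and 6.11 against 6.30, 6.14 and 6.18, and its genotypes overlapped. Its difference was -0.09 (SE 0.08). The probe sets of Fabp3 thus disagree, and the 2.14-fold difference rests on 1 of them.

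Fabp7, the carrier of glia and neural progenitors, has a single probe set, 1450779_at, and it had the tightest knockout values of all 9. It read 7.83, 7.83 and 7.89 in knockout replicates 1, 2 and 3 and 8.78, 8.89 and 8.71 in the wild-type replicates. The gap between the genotypes, 0.82, was wider than the range within either of them (0.18 in wild type and 0.06 in knockout). The difference was -0.95 (SE 0.07), or 1.93-fold. Of 7 measured markers of glia, 1 passed limma's threshold and it was higher in knockout: Mbp, a myelin protein gene that immune cells also transcribe, at 0.35 (SE 0.08, limma adjusted p = 0.0414), a call lost without any 1 of the 6 arrays. Of all genes, 2.85% were called higher. The glia list's mean lay at 5.75 to 5.80 in knockout and 5.74 to 5.78 in wild type.

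**Figure D1:**
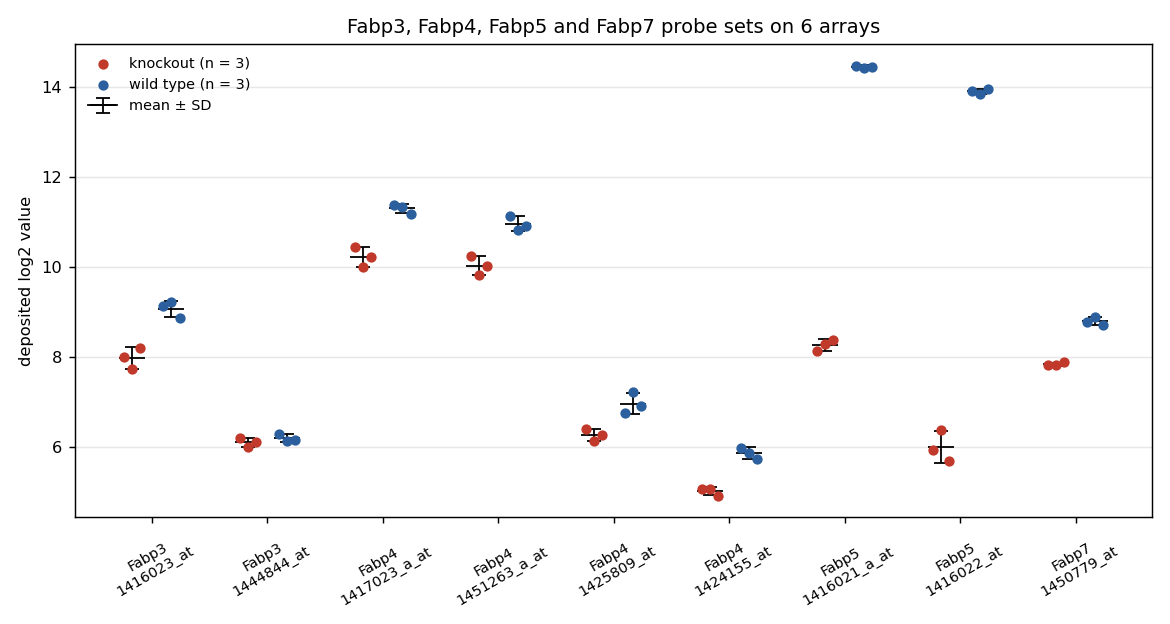
Deposited log2 values (vertical axis) of the 9 probe sets of Fabp3, Fabp4, Fabp5 and Fabp7 (horizontal axis) on 3 knockout arrays (red) and 3 wild-type arrays (blue), with the mean ± SD of each genotype in black. The genotypes overlap for Fabp3 1444844_at alone; both Fabp5 probe sets lie over 6 log2 units lower in knockout.

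Counted together, 8 of the 9 probe sets had an adjusted p under 0.05 in limma's fit of all probe sets, all lower in knockout, where 3.75% of all probe sets were called in either direction and 1.7% lower. The knockout values lay below all wild-type values for the same number, 8 of 9, against 11.1% of all probe sets. A difference of -0.5 or lower was seen in 8 of 9, against 1.39% of all probe sets. These shares follow from how the genes were chosen and are no evidence of their own. Without Fabp5, the brightest probe sets of Fabp3, Fabp4 and Fabp7 lay between -0.95 and -1.10, with SEs of 0.07 to 0.13, while their levels cannot be set against one another because each probe set has its own affinity. Probe sequences were not used here, so what share of a Fabp3, Fabp4 or Fabp7 signal comes from the related Fabp5 transcript was not tested. No member changed direction when any array was left out, which was fixed in advance for the 8 whose genotypes do not overlap. Fabp3 1416023_at then lay between -1.21 and -0.97, Fabp4 1417023_a_at between -1.19 and -0.97 and Fabp7 between -0.99 and -0.90.

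Other genes of the same protein family did not pass the test. The list held the remaining fatty-acid-binding proteins, myelin protein P2 (Pmp2) and the cellular carriers of retinoic acid and retinol, 12 genes of which 10 were measured. Limma called 0 of 10, and 0 had an unadjusted p under 0.05, where 4.9% of all genes were called and 2.05% were called lower. The median difference was -0.07, beside 0.01 over all genes. Only Rbp2, the intestinal retinol carrier, had a mean above the median of all values (6.29 ± 0.11 in knockout and 6.36 ± 0.12 in wild type, n = 3 each), so most of the list is dim and small changes would not be seen in it. The 3 other family genes in the run on chromosome 3 were among them. Pmp2 lay at -0.07 (SE 0.07), Fabp9, a carrier of sperm, at -0.17 (SE 0.13) and Fabp12 at -0.09 (SE 0.07). The liver and intestinal forms Fabp1 (0.11, SE 0.08), Fabp2 (0.18, SE 0.09) and Fabp6 (-0.02, SE 0.07) lay on both sides of 0. So did the retinoid carriers Crabp1 (-0.16, SE 0.09), Crabp2 (-0.13, SE 0.09) and Rbp7 (0.06, SE 0.09).

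**Figure D2:**
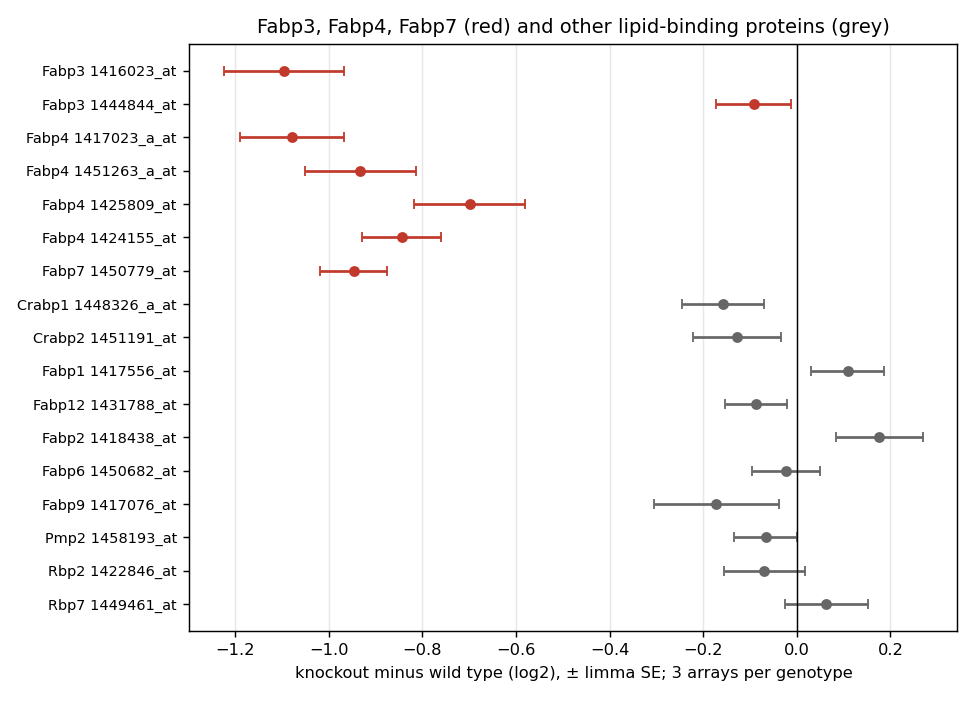
Difference between knockout and wild type (horizontal axis, log2) with limma's SE as bars for the probe sets of Fabp3, Fabp4 and Fabp7 (red) and for the brightest probe set of each of 10 other lipid-binding proteins (grey); both Fabp5 probe sets, at -6.17 and -7.89, lie beyond the axis and are left out. The red points other than Fabp3 1444844_at lie at -0.70 or lower, and the grey points lie between -0.17 and 0.18.

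The members did not share 1 order of arrays within a genotype. Fabp3 1416023_at was highest in knockout replicate 3 and lowest in knockout replicate 2, 0.23 above and 0.24 below the knockout mean, and among wild-type arrays it was highest in replicate 2 and lowest in replicate 3. Fabp7 was likewise highest in knockout replicate 3 and in wild-type replicate 2 and lowest in wild-type replicate 3, over a far smaller range. Fabp4 1417023_a_at was highest in replicate 1 of both genotypes, and Fabp5 followed neither order. Interferon-stimulated genes, a list of 20 antiviral genes added after the data had been seen, were lower in knockout for all 17 measured (median -1.72). Their mean lay at 9.65, 8.79 and 10.23 in knockout replicates 1, 2 and 3 and at 11.23, 11.64 and 11.14 in the wild-type replicates. Fabp3 1416023_at thus ordered the 3 arrays of each genotype as this list did, while Fabp3 1444844_at, Fabp7 and the Fabp4 probe sets did not. Fabp7 differed from the list only in the order of knockout replicates 1 and 2, which both read 7.83. How many of all probe sets had the list's order was not counted, so a shared order is a description only.

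**Figure D3:**
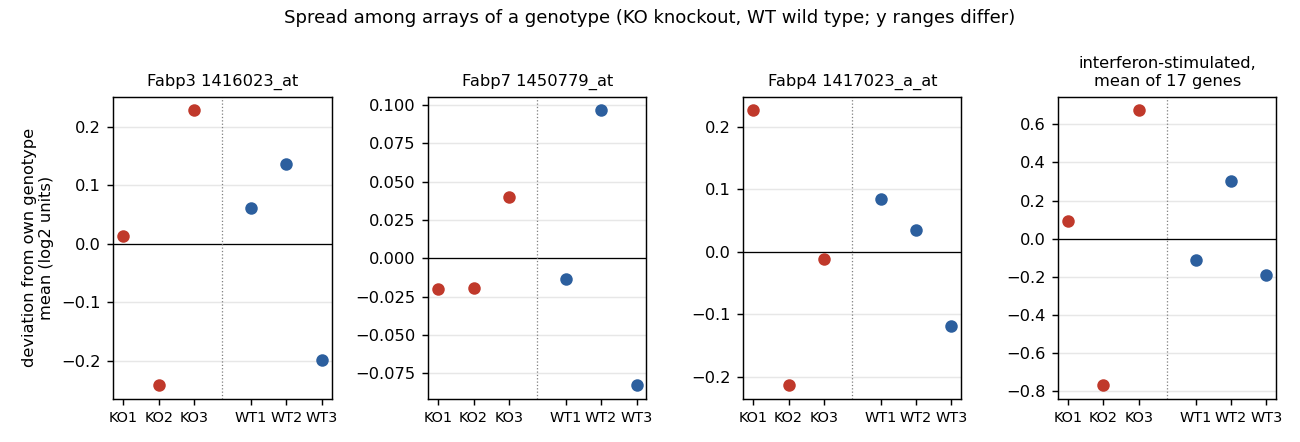
Deviation of each array from the mean of its own genotype (vertical axis, log2 units; ranges differ between panels) for Fabp3, Fabp7 and Fabp4 probe sets and for the mean of 17 interferon-stimulated genes, by array (KO knockout in red, WT wild type in blue). Fabp3 1416023_at and the interferon-stimulated genes share the order of arrays, highest in KO3 and WT2 and lowest in KO2 and WT3.

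The genes most like each member were taken from 528 probe sets with 1 gene, a mean above the median of all values and a range of at least 1 over the arrays. Likeness was Pearson's r, first over the 6 arrays, where genotype sets most of it, and then over the 6 deviations from the own genotype mean, which leave genotype out. Fabp3 came closest over the arrays to Slco3a1, an organic anion transporter (r = 0.9984), Kdr, a receptor for VEGF (0.9963), and Tap1, a peptide transporter for MHC class I (0.9944). By deviations its closest were Plekha4 (0.9931), the centriole gene Sass6 (0.9918) and again Slco3a1 (0.9911). For Fabp7 they were Cd40, a costimulatory receptor (0.9869), Kdr (0.9856) and the POU factor Pou3f1 (0.9826) over the arrays, and Cd40 (0.9958), the guanylate-binding protein Gbp8 (0.9885) and Rilpl1 (0.9761) by deviations. For Fabp4 they were the lymphocyte-activation family receptor Slamf8 (0.9776), the heat-shock protein Hspa1b (0.9755) and Kdr (0.97), then by deviations the chemokine Ccl4 (0.899), Slamf8 (0.8707) and the oxysterol enzyme Ch25h (0.8436). Over the arrays, an r over 0.9 was common: 269 of the 528 with Fabp3 (50.9%), 206 with Fabp7 (39%) and 195 with Fabp4 (36.9%). An r over 0.9 by deviations was found for 119 of the 528 with Fabp3, 33 with Fabp7 and 0 with Fabp4. With 6 arrays, and the best taken from so many, a high r is a description only.

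The receptors and enzymes that fatty-acid-binding proteins work with were read next, from lists chosen with earlier results of these data known. Of 11 measured nuclear receptors and coactivators limma called 0, although 5 had an unadjusted p under 0.05. Ppard, the receptor to which FABP5 is known to bring ligands, lay at 0.15 (SE 0.08), and Pparg, which drives Fabp4 in adipocytes, at 0.22 (SE 0.10), neither past the threshold. Ppard and Pparg were picked from the list for these roles. The 4 of smallest p were the coactivators Ppargc1a (-0.32, SE 0.09) and Ppargc1b (0.36, SE 0.13), with Rxrb (0.22, SE 0.07), the partner receptor of PPARs, and the retinoic acid receptor Rarb (0.39, SE 0.13). Of 16 measured genes of fatty acid uptake and activation limma called 0, with 1 at an unadjusted p under 0.05, the caveola protein Cav1 (-0.37, SE 0.09, limma adjusted p = 0.0600). The fatty acid translocase Cd36 lay at -0.13 (SE 0.07) and the fatty acid transporters Slc27a2 and Slc27a5 at 0.14 and -0.15 (SE 0.07 each). The lists' medians were 0.11 and 0.04.

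Among 19 measured PPAR targets, 3 rose in knockout, 0 fell and 16 did not pass, with a median of 0.02, where 2.85% of all genes were called higher. The acyl-CoA thioesterase Acot1 rose by 0.50 (SE 0.06, limma adjusted p = 0.0158). The peroxisomal enzyme Ehhadh rose by 0.43 (SE 0.07, limma adjusted p = 0.0207) and the mitochondrial dehydrogenase Acadm by 0.39 (SE 0.07, limma adjusted p = 0.0273). Cidec, a lipid droplet protein, lay at 0.27 (SE 0.07, limma adjusted p = 0.0655). Acot1, Ehhadh and Acadm went the other way from Fabp3, Fabp4 and Fabp7, but the list was mixed by gene, with a lower mean for 7 of 19. The list's mean did not overlap between the genotypes, at 8.52 to 8.55 in knockout and 8.46 to 8.47 in wild type. Unadjusted, 8 of the 19 had a p under 0.05, and these included Plin2 (-0.20, SE 0.06) and Acadl (-0.20, SE 0.07), which were lower. Leaving out knockout replicate 1 or wild-type replicate 2 left 0 of the 3 called rises, and leaving out knockout replicate 2 or wild-type replicate 1 left 1.

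Of 14 other lipid carriers, 2 rose, 1 fell and 11 did not pass (median 0.03), where 2.85% of all genes were called higher and 2.05% lower. The sterol carrier Stard4 rose by 0.71 (SE 0.08, limma adjusted p = 0.0127) and the phosphatidylcholine carrier Stard7 by 0.54 (SE 0.09, limma adjusted p = 0.0207), while Stard3, which tethers late endosomes for cholesterol transfer, fell by 0.59 (SE 0.12, limma adjusted p = 0.0367). The lysosomal cholesterol carrier Npc2 lay at -0.26 (SE 0.07, limma adjusted p = 0.0696). The mean of these 14 carriers narrowly did not overlap, at 10.6285 to 10.6989 in knockout and 10.6161 to 10.6267 in wild type, while 7 of 14 had a lower mean. Stard4 lost its call without knockout replicate 1, Stard7 without knockout replicate 1 or 2 or wild-type replicate 1 or 2, and Stard3 without each array except knockout replicate 3. In the list for lipolysis, eicosanoid and endocannabinoid enzymes, 1 of 15 rose, 1 fell and 13 did not pass (median -0.03), small counts beside the same 2.85% and 2.05% of all genes. Ltc4s, the leukotriene C4 synthase, rose by 0.68 (SE 0.12, limma adjusted p = 0.0223), and Ptges, the inducible prostaglandin E synthase, fell by 0.96 (SE 0.18, limma adjusted p = 0.0284). Ltc4s lost its call without knockout replicate 1 or 2 or wild-type replicate 1 or 2, and Ptges without each array except knockout replicate 3. Alox5, the 5-lipoxygenase (0.41, SE 0.10), and Napepld, which makes anandamide (0.39, SE 0.13), did not pass.

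Marker lists were read on the same arrays because Fabp4 is also a gene of adipocytes and endothelium, and Fabp3 one of muscle. The arrays carried macrophage genes as labelled: all 9 measured lay above the median of all values, with Lyz2 at 14.83 to 14.85 and Csf1r, the CSF1 receptor, at 13.86 to 13.92 on every array. Of these 9, Fcgr1, a high-affinity IgG receptor (-1.13, SE 0.19, limma adjusted p = 0.0227), and Mertk, a receptor for dying cells (-0.46, SE 0.08, limma adjusted p = 0.0234), fell, 0 rose and 7 did not pass. The list's mean lay at 11.98 to 12.15 in knockout and 12.22 to 12.29 in wild type. Its median difference was -0.05, and 6 of 9 had a lower mean. Before adjustment 3 of the 9 had a limma p under 0.05, of which Mrc1 was higher. Of all genes, 2.05% were called lower. Apart from Fcgr1 and Mertk, the macrophage genes lay between -0.11 (Cd68, SE 0.07) and 0.16 (Mrc1, SE 0.07). Leaving out knockout replicate 1 or wild-type replicate 1 or 2 ended both calls, and leaving out knockout replicate 2 also that of Mertk. Fcgr1 lost its call with eBayes's trend and robust settings as well.

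Adipocyte markers overlapped between the genotypes, at 4.90 to 4.97 in knockout and 4.93 to 4.97 in wild type, with 0 of 8 called, 1 at an unadjusted p under 0.05 and Adipoq, the defining adipokine, at 3.86 to 4.16 in knockout and 3.77 to 4.09 in wild type. So did striated muscle markers, at 5.28 to 5.45 against 5.31 to 5.46, with 0 of 9 called and 0 at an unadjusted p under 0.05. The mean of the endothelial markers lay at 5.48 to 5.53 in knockout against 5.61 to 5.66, although the median difference was -0.03 and 6 of 10 had a lower mean. Kdr alone of the 10 was called (-0.84, SE 0.09, limma adjusted p = 0.00878; 0.0556 without knockout replicate 1). Cdh5, the endothelial cadherin, lay at -0.40 (SE 0.10) and Vwf, the von Willebrand factor gene, at 0.30 (SE 0.08), neither past the threshold. Before adjustment 4 of the 10 had a limma p under 0.05, of which Vwf was higher. Of all genes, 2.05% were called lower. The defining marker Pecam1 lay at 4.25 to 4.28 in knockout and 4.18 to 4.37 in wild type, below the median of all values.

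The means of the dendritic cell, neutrophil and fibroblast lists did not overlap between the genotypes. Of all genes, limma called 2.85% higher and 2.05% lower. A limma p under 0.05 before adjustment was seen for 7 of 11 dendritic cell genes and 7 of 10 fibroblast genes. The median differences of these lists were 0.33 and -0.32, and 2 of 11 and 8 of 10 had a lower mean. The dendritic cell mean stood at 7.66 to 8.10 in knockout and 7.38 to 7.58 in wild type, with 2 of 11 called higher: H2-DMb2, an MHC class II chaperone subunit (0.97, SE 0.19, limma adjusted p = 0.0332), and the transcription factor Batf3 (0.53, SE 0.11, limma adjusted p = 0.0382). The neutrophil mean stood at 8.90 to 9.51 against 9.56 to 9.82. Limma called 0 of these 11 after adjustment, and 9 had an unadjusted p under 0.05, of which 8 were lower and Mmp8, a collagenase, was higher (0.16, SE 0.06). The gelatinase Mmp9 lay higher too, at 0.29 (SE 0.14). The neutrophil list's median difference was -0.53, and 9 of 11 had a lower mean. Its 4 genes of smallest p were all lower: Ngp (-0.92, SE 0.24), Camp (-1.03, SE 0.28), S100a8 (-0.53, SE 0.16) and S100a9 (-0.73, SE 0.22). Knockout replicate 2 was the highest array for the dendritic cell list and the lowest for the neutrophil list, and among knockout arrays it was also the lowest for Fabp3 1416023_at and for 3 of the 4 Fabp4 probe sets. The fibroblast mean stood at 5.54 to 5.65 against 5.97 to 6.05, with 3 of 10 called lower, while Fn1 (0.25, SE 0.11) and Thy1 (0.13, SE 0.09) had a higher mean. Called were the collagen gene Col1a2 (-1.29, SE 0.11, limma adjusted p = 0.00401) and the proteoglycan gene Dcn (-1.10, SE 0.14, limma adjusted p = 0.0158). For Dcn limma's adjusted p was 0.0687 when knockout replicate 1 was left out and 0.0588 when wild-type replicate 2 was. The third, the collagen gene Col3a1 (-0.48, SE 0.08, limma adjusted p = 0.0219), lost its call without knockout replicate 1 or 2 or wild-type replicate 1 or 2. Its knockout mean, 3.79, lies under the 20th percentile of all values (4.07), and with values floored there limma's adjusted p was 0.136. Of the dendritic cell genes, H2-DMb2 kept its call only when the array left out was replicate 3 of either genotype, and Batf3 only when it was knockout replicate 3. Both also lost it with the floor, Batf3 after quantile normalization and H2-DMb2 with eBayes's trend and robust settings. The lymphocyte mean stood at 4.62 to 4.72 against 4.76 to 4.79, with 0 of 6 called by limma, 4 of 6 lower in mean, 1 at an unadjusted p under 0.05 (Ms4a1, a B cell gene, -0.30, SE 0.12) and 1 of the 6 above the median of all values. The part of these cell types in the values of Fabp3, Fabp4 and Fabp7 was not tested.

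**Figure D4:**
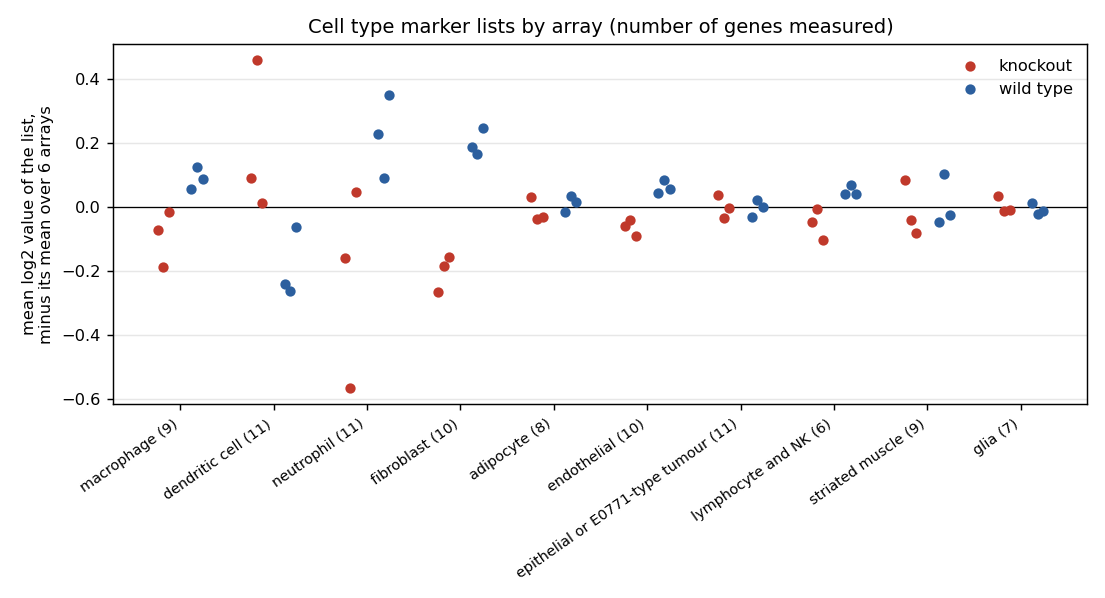
Mean log2 value of each cell type marker list minus its mean over the 6 arrays (vertical axis) by list (horizontal axis, with the number of genes measured), for knockout (red) and wild-type arrays (blue). The means of the macrophage, fibroblast, endothelial, lymphocyte and neutrophil lists are lower on every knockout array than on any wild-type array, that of the dendritic cell list is higher, and the adipocyte, epithelial, muscle and glia lists overlap.

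RNA quality was read from the array's control probe sets for beta-actin, as the value at the 3' end minus that at the 5' end. It spanned 0.39 to 0.44 in knockout and 0.34 to 0.37 in wild type, while the same measure for Gapdh overlapped (-0.0036 to 0.05 against -0.0012 to 0.09). The part of this difference in the members' values was not tested.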

How the data were processed

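The deposited table holds log2 values for 45101 probe sets and 6 arrays, a scale inferred from their range. Per the submitters' processing notes, the tools were GCRMA 2.30.0, RMA, affy 1.36.1 and limma 3.14.4, whose roles are not given. GCRMA and RMA pull low values down to different extents, so differences of dim probe sets depend on which made the values. No scan date or detection call was used. The 64 control probe sets were left out of the tests. RefSeq (GRCm38.p6) supplied current symbols by gene identifier, and the probe set with the highest mean stood for its gene in the lists. Of 192 list genes, 172 had a probe set.

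The test was limma 3.58.1 (R 4.3.3; lmFit, then eBayes) with a single term for genotype, two-sided, with Benjamini-Hochberg adjustment over 45037 probe sets and a threshold of 0.05. SEs are limma's moderated ones. The fit was tested on simulated data. The members and lists were chosen with earlier results of these data known. Named were all members, all measured genes of the family list, up to 4 genes of smallest p from each other list, and for Fabp3, Fabp4 and Fabp7 the 3 most alike genes by either r. Other genes, such as Lyz2, Csf1r, Pecam1, Adipoq, Cdh1, Ppard and Pparg, were picked for their known role after their values were seen. Mmp8, Mmp9, Fn1, Thy1, Plin2 and Acadl were named for their direction, which differed from that of the called or smallest-p genes of their list. Figures used matplotlib 3.10.9 in Python 3.11.15.

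The alternatives were quantile normalization, median centring, above-median probe sets only, a floor at the 20th percentile (4.07; probe sets at the floor on all arrays left out), trend and robust settings, array weights, a replicate block, each array left out, gene means over probe sets, and leaving out probe sets ending in _s_at or _x_at.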

Additional observations from a re-analysis of the deposited data

How the results depend on the processing

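Every member kept its direction under each alternative that could be fitted, but most of this was fixed in advance. The floor, trend and robust settings, the replicate block and above-median probe sets only left the members' differences as they were. Leaving out or weighting arrays cannot turn a difference whose genotypes do not overlap, as for 8 of the 9 members. Fabp4 1424155_at lies below the median and has no value with above-median probe sets only. With 1 array left out, the differences ran from -1.21 to -0.97 and from -0.15 to -0.04 for Fabp3 1416023_at and 1444844_at. They ran from -1.19 to -0.97, -1.04 to -0.83, -0.80 to -0.57 and -0.91 to -0.78 for Fabp4 1417023_a_at, 1451263_a_at, 1425809_at and 1424155_at. For Fabp5 they ran from -6.23 to -6.10 and from -8.08 to -7.73, and for Fabp7 from -0.99 to -0.90. The number of probe sets called, 1691, ran from 40 to 1360 with 1 array left out, and was 2692 with above-median probe sets only, 1022 with the floor and 3126 with trend and robust settings. The replicate block gave 92. Same-numbered arrays did not deviate together (r of -0.12, -0.09 and -0.25 over probe sets above the median). With 3 arrays per genotype, these r cannot decide whether the numbers pair the samples.

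In the lists, the PPAR targets that rose were 5 with gene means over probe sets and 0 with the replicate block, and 1 (above-median only) or 3 (trend and robust) fell. Fatty acid uptake genes that fell were 1 with above-median probe sets or gene means and 2 with trend and robust settings. Other lipid carriers that rose were 1 with the replicate block or without _s_at and _x_at probe sets; those that fell were 2 with above-median probe sets, trend and robust settings or gene means, and 0 with the floor or the replicate block. Eicosanoid and related enzymes that rose were 2 with median centring, above-median probe sets, trend and robust settings or gene means and 0 with the replicate block; those that fell were 0 with the floor or the block. With 1 array left out, risers ran from 0 to 3 (PPAR targets), 0 to 2 (lipid carriers), 0 to 2 (enzymes) and 0 to 1 (nuclear receptors), and fallers from 0 to 1 (lipid carriers) and 0 to 1 (enzymes). The replicate block also ended the marker calls of H2-DMb2, Batf3, Col3a1, Mbp, Fcgr1 and Mertk. The cause of these shifts was not tested. Signal over background was not available, which limits the dim probe sets most.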
